A study of Arabidopsis thaliana with 24 samples.

Results

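A stretch of neighbouring genes on chromosome 1 of Arabidopsis thaliana, from AT1G20910 to AT1G27530, was described for its transcript levels in roots. It had been picked out in an earlier look at the same arrays because its neighbouring genes gave higher signals in the double mutant nlp6nlp7 than in the reference line Col-0. Its members are the 310 probe sets that name 1 gene inside these ends, of 22714 probe sets tested, and they stand for 304 of the 13264 loci that the array names alone. The regulator gene HHO3 and 5 probe sets of UGT glycosyltransferase genes inside the ends were left out. The reference lists 775 genes there, 621 of them protein-coding, so the members are a part of the stretch and not a random sample of it. Of the 304 loci, 296 are annotated as protein-coding and 8 as pseudogenes, and 24 carry a gene symbol. The tables hold no description of function for the other 280, and the roles given for them below are textbook background.

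The genotypes were the double mutant nlp6nlp7, the single mutants nlp7 and nlp6, and Col-0. The labels name no alleles and do not say how the double mutant was made. All seedlings were kept for 9 days with 12.5 mM ammonium succinate as nitrogen source under continuous light. Roots were taken at 35 min after addition of 25 mM KNO3 or at 0 min, before the addition. Each of the 8 groups held 3 biological replicates, each a pool of about 200 seedlings from 3 boxes, measured on 1 Affymetrix ATH1 array each. There was no group given potassium without nitrate, so the effect of nitrate cannot be told apart from those of potassium, handling and elapsed time. Whole roots were used, so a change in the number of cells of a type and a change in RNA per cell cannot be told apart.

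The mutated genes encode transcription factors of the NIN-like family. These proteins are known to switch on early nitrate-response genes, such as those of nitrate uptake, nitrate reduction and carbon metabolism. Genes that lie side by side in a plant genome mostly serve unrelated functions, apart from local families that arose as tandem repeats. The reference places NLP6 on chromosome 1 outside the stretch and NLP7 on chromosome 4. Neither has a named probe set, so the mutated genes were not checked by name.

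The trimmed mean intensity was nearly the same on all 24 arrays, 500.1 to 500.5, and the number of arrays limits the precision. The root hair gene EXPA7 read 361 to 649 over the arrays, and the leaf photosynthesis genes LHCB4.1, RCA and PRK read 54 to 242, 201 to 400 and 1 to 71. The markers COBL9 and PLT1 had no named probe set. In a group of defence genes inside the stretch, the nlp7 replicate numbered 1 differed from the remaining arrays at 35 and 0 min. Counts of members called for a nitrate response are given with and without it.

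The difference between nlp6nlp7 and Col-0 is what the stretch was chosen on, so it is described without a test. Differences are on the scale of log2(intensity + 26), where 26 is the 20th percentile of all values. Averaged over both times, the median difference over the 310 members was 0.71, or 1.64-fold, against 0.04 over the 22398 probe sets outside the stretch. The middle 50% of members lay between 0.31 and 0.90, and all members between -0.62 and 1.55. The difference was above 0 in 291 of the 310 members (93.9%) and in 59.0% of the probe sets outside. At 35 min the members' median was 0.70, and at 0 min it was 0.71. Against the single mutants the nlp6nlp7 arrays were higher by a similar amount, with medians of 0.67 against nlp7 and 0.68 against nlp6, values that share the nlp6nlp7 arrays with the comparison used for the choice.

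Dim members read less raised in nlp6nlp7 than bright ones. Members were split at the quartiles that mean log2 intensity over the 24 arrays had among all tested probe sets. The nlp6nlp7 arrays enter that mean, so a member raised in them is placed brighter than it would be without them. The 74 members in the dimmest quartile had a median difference of 0.12, against 0.06 outside the stretch at that brightness. In quartile 2 the 82 members had a median of 0.67, against 0.11 outside. In quartiles 3 and 4 the medians were 0.87 (71 members) and 0.84 (83 members), against 0.03 and -0.03 outside. Those 154 members of the 2 upper quartiles, called the brighter members below, had a median of 0.85 (1.81-fold) with a range of 0.29 to 1.55, and none was below 0. With 3 in place of 26 added before the logarithm, the medians of quartiles 1 to 4 were 0.27, 0.86, 0.91 and 0.86, so quartile 2 read like the brighter ones while quartile 1 still lay lower. Within quartile 4, the 17 members in the brightest 5% of all probe sets, a class chosen after their values were seen, had a median of 0.75 against 0.87 for the other 66.

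**Figure D1:**
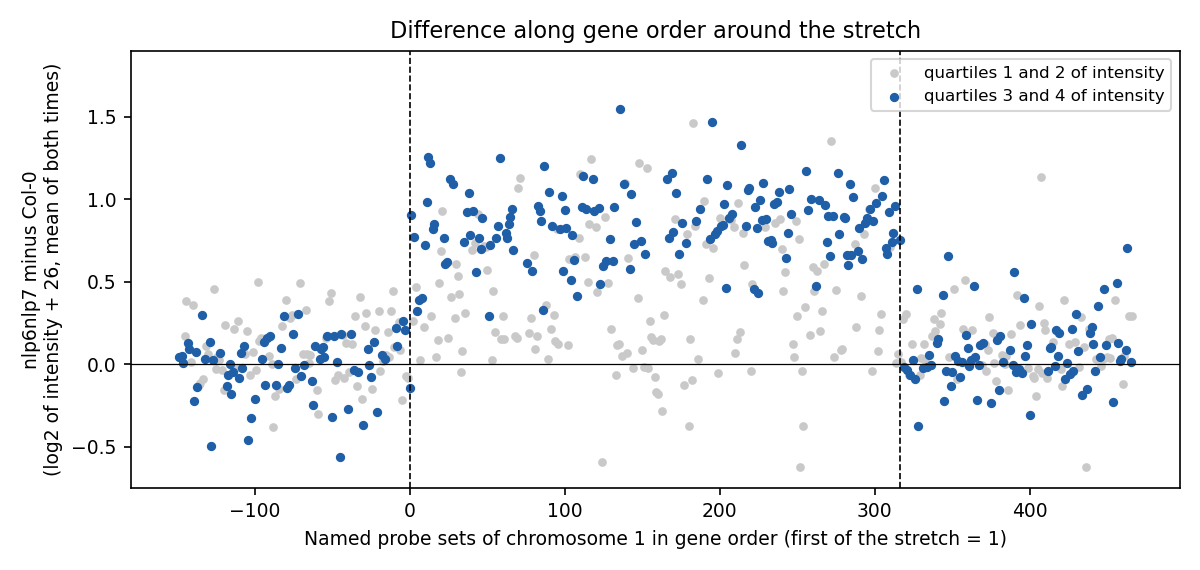
Difference nlp6nlp7 minus Col-0 (log2, mean of both times) for named probe sets of chromosome 1 in gene order, with 150 on each side of the stretch, whose ends are the dashed lines. Blue points are probe sets in intensity quartiles 3 and 4, grey points those in quartiles 1 and 2. The blue points inside the lines lie between 0.29 and 1.55, and the 50 nearest blue points on each side have medians of 0.03 and 0.01 and highest values of 0.30 and 0.65.

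The ends of the stretch were set by the rule, and the values beside them are a description. The first member, AT1G20910, had a difference of 0.90 with mean intensities of 461 in nlp6nlp7 and 233.8 in Col-0. AT1G20950, which encodes a subunit of the pyrophosphate-dependent phosphofructokinase of glycolysis, had 0.77. The next brighter members, AT1G21000, AT1G21010 and AT1G21050, had 0.32, 0.39 and 0.40. Just outside that end, the nearest 5 brighter probe sets were AT1G20890 with -0.14, the sugar transporter gene TMT1 with 0.21, AT1G20823 with 0.26, AT1G20770 with 0.11 and AT1G20760 with 0.22. At the other end GUT2, an enzyme gene of xylan synthesis, had 0.96 and the last member AT1G27530 had 0.75, while AT1G27595 and AT1G27620 beyond it had -0.02 and -0.04. The 50 brighter members next to the first end had a median of 0.82 and the 50 next to the last end 0.89, against medians of 0.03 and 0.01 for the 50 brighter probe sets before and after the stretch. The highest of these outside values were 0.30 before and 0.65 after it, where the 90th percentile was 0.40. Some thus overlapped the lowest brighter members, which began at 0.29. In between, the brighter members gave medians of 0.78, 0.85, 0.88 and 0.89 in 4 successive blocks of the gene order. Among the genes left out by the rule, HHO3 had a difference of 0.46, UGT85A2 1.10, UGT85A7 0.77, UGT74B1 0.68, UGT85A3 0.46 and UGT85A5 0.02.

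The nlp6nlp7 arrays were alike in this respect. Relative to the mean of Col-0 at the same time, the median over the members was 0.71, 0.72 and 0.69 in the nlp6nlp7 arrays at 35 min and 0.69, 0.72 and 0.70 in those at 0 min. The other 18 arrays lay between -0.03 and 0.10, and those of the single mutants between -0.01 and 0.10. Col-0 arrays enter the mean they are compared with, which holds them near 0. For the brighter members the 6 nlp6nlp7 arrays gave 0.88, 0.89 and 0.89 at 35 min and 0.82, 0.82 and 0.83 at 0 min. In 177 of the 310 members (57.1%) the 3 nlp6nlp7 arrays exceeded all 9 arrays of the other genotypes at both times, against 2.32% of all probe sets tested. In 161 members (51.9%) all 6 nlp6nlp7 arrays exceeded all 18 others regardless of time, against 1.63% of all probe sets. Above the 9 others at both times were 138 of the 154 brighter members (89.6%) and 1 of the 74 in the dimmest quartile (1.35%). Outside the stretch the shares at the same brightness were 2.45% and 0.107%. No member had its nlp6nlp7 arrays below all 9 others at both times, against 1.1% of all probe sets.

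**Figure D2:**
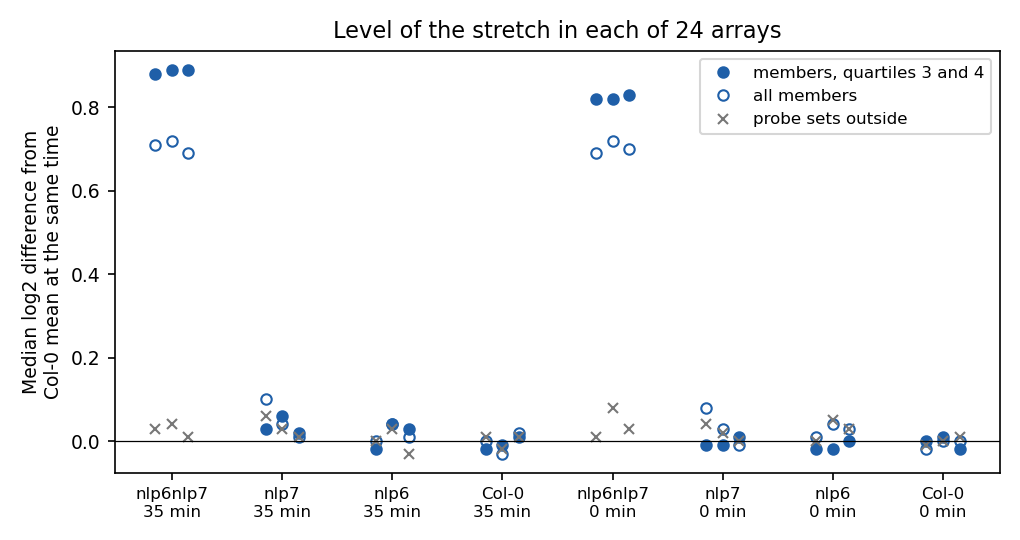
Median over the members of the log2 difference from the Col-0 mean at the same time, for each of the 24 arrays grouped by genotype and time. Filled circles are the members in intensity quartiles 3 and 4, open circles all 310 members, crosses the probe sets outside the stretch. The 6 nlp6nlp7 arrays lie at 0.82 to 0.89 (filled) and 0.69 to 0.72 (open), the other 18 between -0.03 and 0.10. Col-0 arrays enter the mean they are compared with, which holds them near 0.

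Members were sorted into classes by how far they lay from the members' median at each time. A member was called even if it lay within 0.3 of that median at both times, above or below if it lay more than 0.3 away on one side at both times, and mixed otherwise. By this measure 123 members (39.7%) were even, 29 (9.4%) above, 69 (22.3%) below and 89 (28.7%) mixed. Around their own median, the probe sets outside gave 63.5% even, 4.5% above, 3.5% below and 28.5% mixed. The class below was mostly a class of dim probe sets, with 58 of the 69 in quartile 1, 10 in quartile 2, 1 in quartile 3 and none in quartile 4. Even members numbered 2 of 74, 36 of 82, 35 of 71 and 50 of 83 in quartiles 1 to 4. With the median of each quartile as the centre, the even share in quartiles 1 to 4 was 67.6%, 43.9%, 64.8% and 67.5%, against 60.6%, 55.6%, 68.0% and 69.7% for probe sets outside around the median of all outside. On those centres the class above held 3, 8, 2 and 1 members in quartiles 1 to 4, against 1, 8, 12 and 8 around the median of all members. The class below then held 3, 11, 2 and 4, so both classes depend on the centre.

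**Figure D3:**
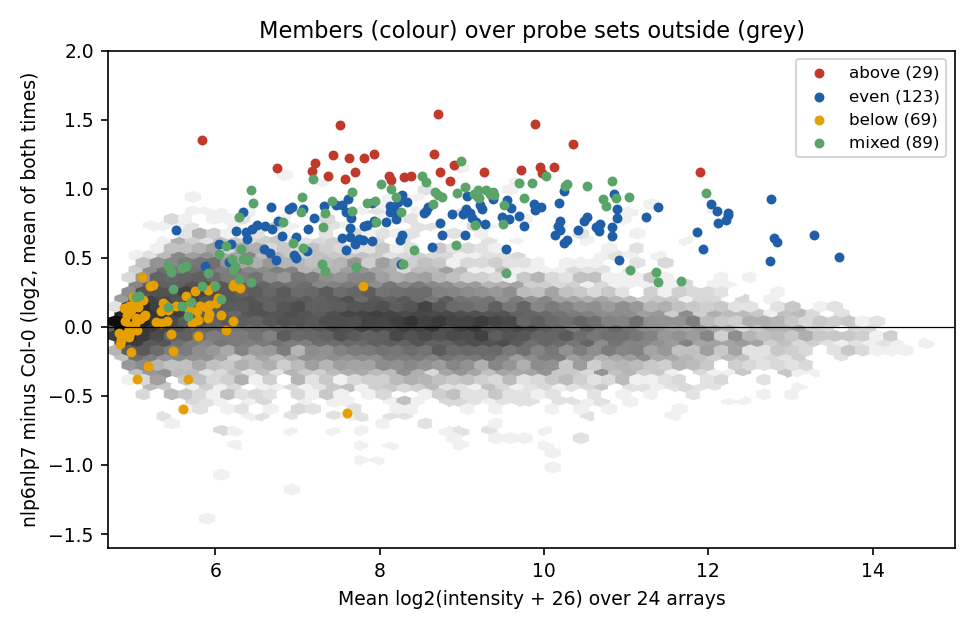
Difference nlp6nlp7 minus Col-0 (log2, mean of both times) against mean log2(intensity + 26) over the 24 arrays. Coloured points are the 310 members by class, with 29 above, 123 even, 69 below and 89 mixed, and the grey shading shows the probe sets outside, of which those beyond the axis limits are not drawn. The members below lie mostly at the dim end, and the members in quartiles 3 and 4 lie between 0.29 and 1.55.

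The measured listed genes of protein synthesis and folding had median differences close to that of the brighter members. AT1G27400, which encodes a protein of the large ribosomal subunit, had intensities of 10589, 10018 and 10977 in nlp6nlp7 at 35 min, against 5624, 5520 and 5730 in Col-0. At 0 min it had 10661, 10149 and 10425 in nlp6nlp7, against 5365, 5468 and 5350 in Col-0. Its difference was 0.90 at 35 min and 0.95 at 0 min, and all nlp6nlp7 arrays lay above all arrays of the other genotypes. AT1G26880, for another protein of the large subunit, averaged 13760 ± 384 at 35 min and 13210 ± 648 at 0 min in nlp6nlp7, against 8145 ± 224 and 8861 ± 218 in Col-0 (SD, n = 3 each). The difference of this very bright probe set was 0.66. AT1G24510, a subunit of the cytosolic chaperonin that folds actin and tubulin, averaged 6262 ± 592 and 6730 ± 641 in nlp6nlp7, against 3292 ± 206 and 3296 ± 328 in Col-0, at 35 and 0 min. Over the list of translation genes, 4 of 11 loci were measured, all brighter members, with a median difference of 0.88 and a range of 0.66 to 1.03. Over the list of protein folding and turnover, 6 of 13 were measured, with a median of 0.86. Cpn60beta4, a chaperonin subunit of plastids and the one dim member of that list, had the lowest difference there, 0.44. The lists did not hold AT1G23280 (1.55) or AT1G21160 (1.22), described below, so they do not stand for all genes of protein synthesis here.

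The 5 measured genes on the list of carbon, nitrogen and redox metabolism ranged from 0.51 to 1.24. AT1G22170, of the phosphoglycerate mutase family of glycolysis, had a difference of 0.86 at 35 min and 0.85 at 0 min. AT1G22410, of the enzyme family that opens the shikimate pathway, had 0.61. CYTC-1, the electron carrier cytochrome c, averaged 16050 ± 835 in nlp6nlp7 and 11070 ± 132 in Col-0 at 35 min, and its difference over both times was 0.51. LPR1, a multicopper oxidase gene of the root response to low phosphate, was in the class above: it read 285, 263 and 246 in nlp6nlp7 at 35 min and 105, 92 and 65 in Col-0. Its difference was 1.24. The median over 5 measured of 21 listed genes of carbon, nitrogen and redox metabolism was 0.61.

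The largest differences came from genes of several kinds. AT1G23280, whose product resembles the yeast ribosome assembly factor MAK16, read 940, 875 and 780 in nlp6nlp7 at 35 min and 262, 304 and 250 in Col-0. At 0 min it read 766, 915 and 856 in nlp6nlp7, against 366, 234 and 253 in Col-0, and its difference of 1.55 was the highest of the members. AT1G24320, of a glycosidase family, had 1.47, and the protein kinase gene AT1G24030 had 1.46. AT1G26680, a gene of the B3 DNA-binding family, had 1.36 and was the only member of quartile 1 whose nlp6nlp7 arrays lay above all others at both times. It read 86, 65 and 89 in nlp6nlp7 at 35 min, against 4, 17 and 13 in Col-0. AT1G25230, of a phosphoesterase family (1.33), and AT1G21160, of a translation initiation factor family (1.22), were also among the 10 highest.

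The smallest differences among the brighter members came from AT1G21830, AT1G21000 and AT1G22550. AT1G21830 had 0.29 on its brighter probe set, AT1G21000, of the PLATZ zinc-binding family, had 0.32, and the transporter gene AT1G22550 had 0.33. AT1G21000 and AT1G22550 were higher in nlp6nlp7 by 0.10 and 0.11 at 35 min and by 0.54 and 0.55 at 0 min. Others low in this class were steady over time: AT1G26550, a parvulin-type prolyl isomerase gene, averaged 9042 ± 176 and 8861 ± 250 in nlp6nlp7, against 6349 ± 438 and 6536 ± 154 in Col-0, at 35 and 0 min. Its difference was 0.47, with the nlp6nlp7 arrays above all others. In 16 of the 154 brighter members the nlp6nlp7 arrays overlapped those of other genotypes at 1 or both times.

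The class below held a run of dim neighbours. From AT1G23570 to AT1G23680, 10 consecutive members stood in quartile 1 and in the class below, with differences from -0.28 to 0.26. Just before them AT1G23560, in quartile 2, had 1.19, and AT1G23530, in quartile 3, had 0.67. All 8 pseudogene loci were in quartile 1 as well, with differences from -0.38 to 0.31. Of 29 listed transcription factor genes only 5 were measured, and none of these 5 was in the 2 upper quartiles. Their median was 0.17, and only IDD16, of the INDETERMINATE DOMAIN family, was even, with 0.60. The list did not hold AT1G26680, of the B3 DNA-binding family (1.36), or AT1G21000, of the PLATZ family (0.32), so it does not stand for all DNA-binding genes here. INO, a YABBY gene known from ovule development, had -0.03. Of the 6 loci with a pair of probe sets, AT1G21580, AT1G21830 and AT1G26300 had them in different classes, and AT1G21580 gave 0.31 on its dimmer probe set and 0.92 on its brighter one.

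A cluster of berberine bridge enzyme-like oxidases, known from defence metabolism, gave differences on both sides of 0, most of them imprecise. AT1G26390 had the lowest difference of all members, -0.62 ± 0.46 (limma standard error). It read 66, 100 and 84 in nlp6nlp7 at 35 min, against 101, 124 and 139 in Col-0. Its neighbour AT1G26380 had a difference of 0.76 ± 0.47, with 81, 74 and 73 in nlp6nlp7 at 35 min, against 53, 53 and 44 in Col-0. AT1G26400, AT1G26410 and AT1G26420 had -0.04 ± 0.14, -0.37 ± 0.46 and 0.35 ± 0.35. Replicate 1 of nlp7 was the outlying array here, with 979 at 35 min and 1852 at 0 min for AT1G26390, against 171 and 110 and then 263 and 137 in the other nlp7 replicates. It was likewise highest for AT1G26380, AT1G26410 and AT1G26420 at both times. None of the 5 genes passed the test for a nitrate response in any genotype.

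**Figure D4:**
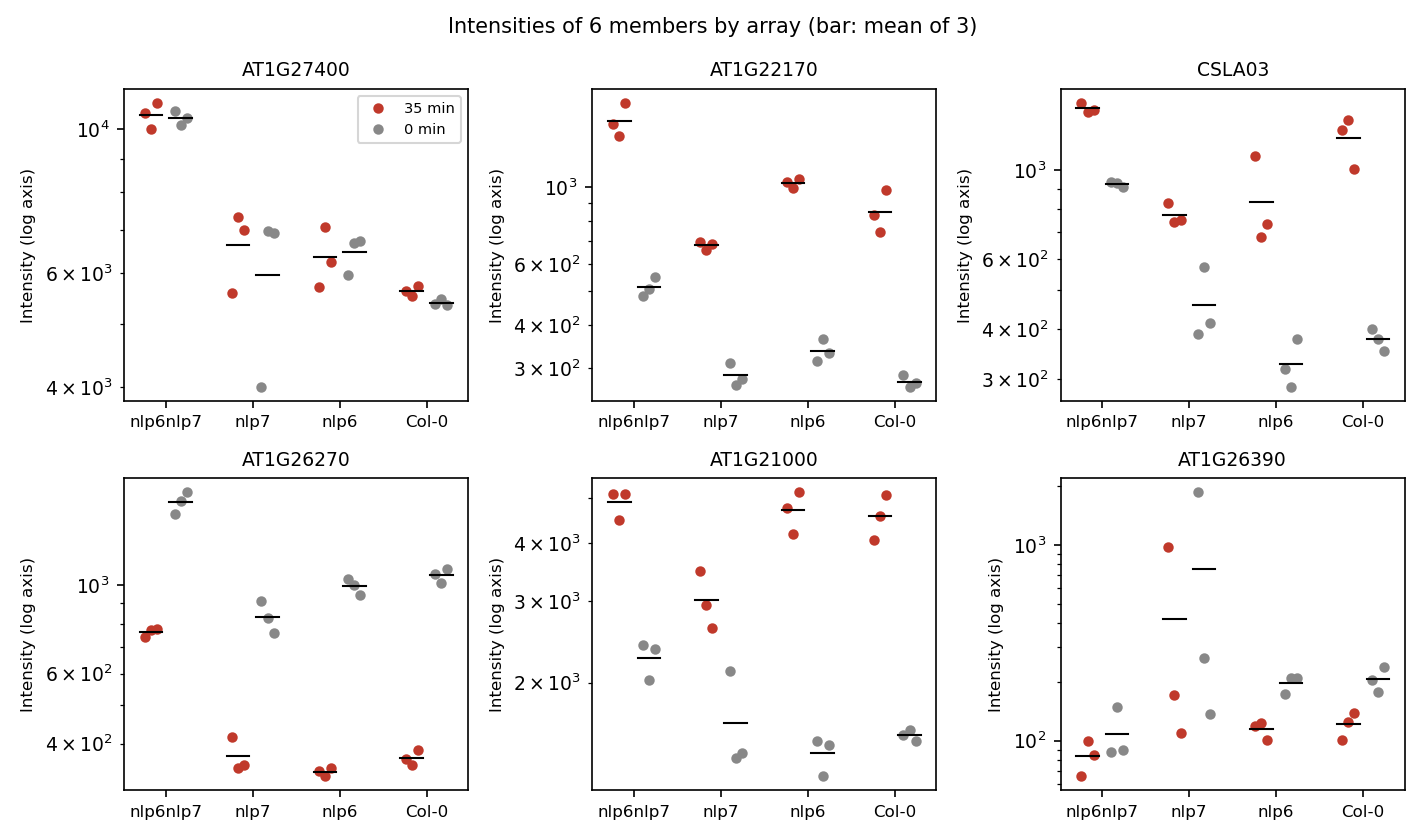
Intensity on a log axis for 6 members in each array, by genotype, with 35 min in red left of 0 min in grey and a bar at the mean of 3. AT1G27400 is higher in nlp6nlp7 at both times, AT1G22170 and AT1G26270 are higher there and respond to nitrate in all genotypes, CSLA03 and AT1G21000 differ less at 35 min, and AT1G26390 is highest in nlp7 replicate 1.

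The nitrate response was tested within each genotype as 35 min against 0 min, with limma on all 24 arrays and Benjamini-Hochberg adjustment over 22714 probe sets. In nlp6nlp7, 9 members were higher and 14 lower after nitrate, against 2.41% and 3% of all probe sets, and these arrays also entered the choice of the stretch. In nlp7, 6 were higher and 11 lower (2.51% and 2.61% of all). In nlp6, 14 were higher and 20 lower (4.13% and 6.15% of all). In Col-0, 13 were higher and 24 lower (4.65% and 5.5% of all). As shares of the 310 members these are 2.90% and 4.52% in nlp6nlp7, 1.94% and 3.55% in nlp7, 4.52% and 6.45% in nlp6, and 4.19% and 7.74% in Col-0. The shares called lower were above those of all probe sets in each genotype, in nlp6 only slightly (6.45% against 6.15%). The shares called higher lay on either side, and none of these shares was tested. The members' median responses were -0.06, -0.02, -0.09 and -0.05 in nlp6nlp7, nlp7, nlp6 and Col-0, against -0.05, -0.02, -0.08 and -0.04 over all probe sets. With each array centred on its median the counts were 10 higher and 9 lower in nlp6nlp7, 8 and 10 in nlp7, 18 and 15 in nlp6, and 17 and 17 in Col-0. Shares of all probe sets are not given for the centred fit, so whether the lower shares exceed them there is not shown.

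In all, 52 members passed the test in at least 1 genotype, and none did so in opposite directions. Of these, 5 rose in every genotype and 8 fell in every genotype. The matching counts over all probe sets were not computed, so these numbers describe the members only. Without replicate 3 of nlp6 at 0 min the nlp6 counts were 9 higher and 12 lower, and without replicate 2 of Col-0 at 35 min 15 were lower in Col-0. Leaving out replicate 2 or 3 of nlp6nlp7 at 0 min left 5 higher and 8 or 9 lower in nlp6nlp7, and without its replicate 2 at 35 min 5 were higher. Without replicate 1 of nlp7 at 0 min 7 were lower in nlp7, and without it at both times 4 were higher and 8 lower.

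AT1G22170 was higher in nlp6nlp7 at both times and rose after nitrate in every genotype. It read 1520, 1405 and 1749 at 35 min and 484, 508 and 549 at 0 min in nlp6nlp7. In Col-0 it read 830, 740 and 980 at 35 min and 286, 265 and 271 at 0 min. Every array at 35 min lay above every array at 0 min within each genotype. The response was 1.55 ± 0.10 in nlp6nlp7 (limma standard error, adjusted p = 1.1e-09), 1.18 ± 0.10 in nlp7 (7.7e-08), 1.54 ± 0.10 in nlp6 (5.8e-10) and 1.54 ± 0.10 in Col-0 (6.6e-10). Between nlp6nlp7 and Col-0 the responses differed by 0.01 ± 0.14.

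Other members that rose in all genotypes were AT1G21000, AT1G21010, AT1G22570 and CSLA03. AT1G21000 averaged 4896 ± 354 at 35 min and 2264 ± 206 at 0 min in nlp6nlp7, and 4570 ± 509 and 1539 ± 42 in Col-0 (SD, n = 3 each). Its response was 1.11 ± 0.14 in nlp6nlp7, 0.89 ± 0.14 in nlp7, 1.72 ± 0.14 in nlp6 and 1.55 ± 0.14 in Col-0 (limma, adjusted p of 0.0004 or less in each). CSLA03, of a family of glucomannan synthases of the cell wall, read 1472, 1395 and 1416 at 35 min and 937, 931 and 909 at 0 min in nlp6nlp7. In Col-0 it read 1264, 1337 and 1009 at 35 min and 401, 379 and 352 at 0 min. On the scale of log2(intensity + 26) it was higher in nlp6nlp7 than in Col-0 by 0.25 at 35 min and by 1.24 at 0 min. The response was 0.61 ± 0.15 in nlp6nlp7 (limma adjusted p = 0.021), 0.74 ± 0.15 in nlp7 (0.005), 1.26 ± 0.15 in nlp6 (6.6e-06) and 1.60 ± 0.15 in Col-0 (2.8e-07). Leaving out any 1 of the 6 nlp6nlp7 arrays put the adjusted p in nlp6nlp7 between 0.056 and 0.074.

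Neighbouring genes of the peptide and nitrate transporter family NPF did not respond alike. AT1G22550 averaged 5196 ± 224 at 35 min and 3489 ± 244 at 0 min in nlp6nlp7, and 4818 ± 303 and 2372 ± 107 in Col-0. It rose in nlp6nlp7 (0.57 ± 0.15, limma adjusted p = 0.024), nlp6 (0.99 ± 0.15, 8.1e-05) and Col-0 (1.01 ± 0.15, 5.7e-05), and in nlp7 the value was 0.47 ± 0.15 (0.079). AT1G22570 averaged 1220 ± 177 at 35 min and 823 ± 127 at 0 min in nlp6nlp7, and 620 ± 51 and 282 ± 29 in Col-0. It rose by 0.55 ± 0.14 in nlp6nlp7, 0.60 ± 0.14 in nlp7, 0.48 ± 0.14 in nlp6 and 1.07 ± 0.14 in Col-0 (limma adjusted p = 0.023, 0.013, 0.032 and 2e-05). AT1G22540 went the other way and was lower after nitrate in nlp6nlp7 (-0.49 ± 0.12, adjusted p = 0.021) and Col-0 (-0.47 ± 0.12, 0.016), with -0.28 in nlp7 and -0.35 in nlp6 short of the threshold. Of the 6 measured of 17 listed transport genes, 2 rose and 1 fell in nlp6nlp7, 1 rose in nlp7, 2 rose in nlp6, and 3 rose and 1 fell in Col-0. The third to rise in Col-0 was AT1G26730 (0.76 ± 0.24, adjusted p = 0.045), a call lost in 22 of 33 other settings.

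The members that fell after nitrate in every genotype were AT1G21590, GI, AT1G23390, AT1G25320, AT1G26270, AT1G26800, AT1G27200 and AT1G27210. AT1G26800, a gene for a RING-type ubiquitin ligase, read 254, 167 and 161 at 35 min and 647, 618 and 504 at 0 min in nlp6nlp7. In Col-0 it read 83, 61 and 59 at 35 min and 370, 399 and 389 at 0 min, and its response there, -2.15 ± 0.18 (limma adjusted p = 4.2e-08), was the lowest of the members. In nlp6nlp7 it was -1.50 ± 0.18 (1.1e-05), in nlp7 -1.70 ± 0.18 and in nlp6 -1.64 ± 0.18. AT1G26270, of a phosphatidylinositol kinase family, read 739, 773 and 774 at 35 min and 1507, 1626 and 1707 at 0 min in nlp6nlp7, against 367, 354 and 385 and then 1065, 1010 and 1095 in Col-0. Its response was -1.06 ± 0.08 in nlp6nlp7, -1.11 ± 0.08 in nlp7, -1.48 ± 0.08 in nlp6 and -1.46 ± 0.08 in Col-0. In both genes all arrays at 35 min lay below all arrays at 0 min in each genotype, and at each time the nlp6nlp7 arrays lay above those of every other genotype.

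The clock gene GI fell by 0.51 ± 0.09 in nlp6nlp7, 0.47 ± 0.09 in nlp7, 0.72 ± 0.09 in nlp6 and 0.72 ± 0.09 in Col-0. AT1G23390, a Kelch-repeat F-box gene, fell by 0.86, 1.02, 0.67 and 1.11 in nlp6nlp7, nlp7, nlp6 and Col-0, and AT1G27200 by 1.26, 0.91, 1.18 and 1.10. AT1G27210 fell by 0.45 ± 0.09 in nlp6nlp7, 0.46 ± 0.09 in nlp7, 0.93 ± 0.09 in nlp6 and 1.02 ± 0.09 in Col-0 (limma adjusted p of 0.0047 or less in each). None of the 4 measured translation genes passed the test in any genotype. Among the 5 measured metabolic genes, AT1G22170 rose in each genotype and LPR1 fell in Col-0 (-0.46 ± 0.12, adjusted p = 0.015). Among the 5 measured genes of the transcription factor list, none passed. That list did not hold AT1G21000, of the PLATZ zinc-binding family, which rose in each genotype. AT1G21830 rose in Col-0 on 1 probe set (0.65 ± 0.14, adjusted p = 0.0042), and its other probe set gave 0.08 ± 0.19 (0.90).

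**Figure D5:**
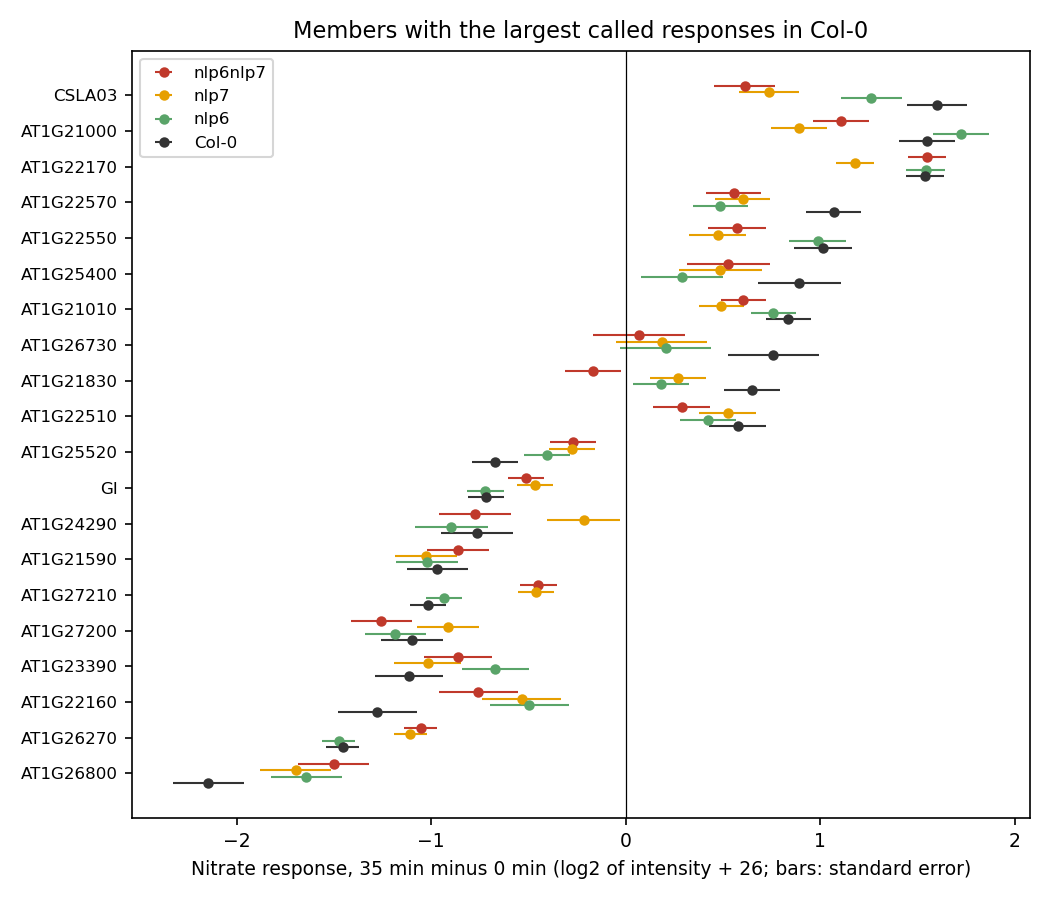
Nitrate response, 35 min minus 0 min on the log2 scale, in nlp6nlp7, nlp7, nlp6 and Col-0 for the 10 highest and 10 lowest responses called in Col-0. Points are limma estimates and bars their standard errors. AT1G22170 has responses of 1.55 in nlp6nlp7 and 1.54 in Col-0, and CSLA03 has 0.61 in nlp6nlp7 and 1.60 in Col-0.

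Whether a member's response differed between a mutant and Col-0 was tested as an interaction in the same fit. For nlp6nlp7, 1 member passed, lower than in Col-0, against 0.387% of all probe sets called lower and 0.141% called higher. It was CSLA03, with a difference of -0.99 ± 0.22 (limma adjusted p = 0.045). It is not known whether the stretch was chosen on 1 time or on both, so this contrast may not be independent of the choice. The call was lost on leaving out any nlp6nlp7 array, any Col-0 array but replicate 3 at 35 min, any nlp7 array at 35 min, nlp7 replicate 3 at 0 min or nlp6 replicate 1 at 0 min, with adjusted p from 0.051 to 0.15. In all, 21 members had an unadjusted p under 0.05. AT1G27210 (0.57 ± 0.13, adjusted p = 0.067) and AT1G21830 (-0.82 ± 0.20, 0.093) did not pass. For nlp7 and for nlp6 no member passed, with 17 and 15 members at an unadjusted p under 0.05. No share of all probe sets was computed at the unadjusted threshold, for these counts or for the 21 above. Of all probe sets, 0.22% were called lower and 0.044% higher for nlp7, and 0.0044% each way for nlp6. CSLA03 had -0.86 ± 0.22 (adjusted p = 0.16) in nlp7.

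The single mutants did not show the raised level. They share the Col-0 arrays with the comparison used for the choice. The members' median difference from Col-0 was 0.06 at 35 min and 0.02 at 0 min in nlp7, and 0.02 and 0.03 in nlp6, against 0.04, 0.03, 0.00 and 0.03 over all probe sets. By limma no member passed in nlp6 at either time or in nlp7 at 0 min. At an unadjusted p under 0.05 there were 24 members in nlp6 at 35 min, 34 in nlp6 at 0 min and 37 in nlp7 at 0 min. The shares of all probe sets that follow are for adjusted p, and none was computed at the unadjusted threshold. Of all probe sets, 0.0132% were called higher and 0.00881% lower in nlp6 at 35 min, 0.0176% and 0.0704% in nlp6 at 0 min, and 0.0616% and 0.123% in nlp7 at 0 min. In nlp7 at 35 min, 1 member was higher and 2 were lower, against 0.374% and 0.872% of all probe sets. AT1G22550 was lower, with 2475, 2825 and 2989 in nlp7 and 4700, 5163 and 4592 in Col-0 (-0.80 ± 0.15, limma adjusted p = 0.0075). AT1G21000 was lower too, with 3477, 2937 and 2621 in nlp7 and 4058, 4577 and 5076 in Col-0 (-0.60 ± 0.14, 0.045). AT1G23790 was higher, with 133, 126 and 147 in nlp7 and 110, 95 and 90 in Col-0 (0.38 ± 0.08, 0.028). In each of these genes the arrays of nlp7 and Col-0 did not overlap. Without replicate 2 of Col-0 at 35 min none of them passed. The call of AT1G21000 was lost in 18 of 33 other settings and that of AT1G23790 in 9, among them the one without replicate 1 of nlp7 at both times (adjusted p = 0.067 by limma). At 35 min, leaving out 1 array gave 6 called members in nlp7 without its replicate 1 at 0 min, 5 without nlp6 replicate 1 at 35 min and 1 without nlp7 replicate 2 at 35 min. At 0 min, 4 were called in nlp7 without its replicate 3 at 0 min. Without its replicate 2 at 0 min, or nlp6nlp7 replicate 2 at 35 min, 1 was called. In nlp6 at 35 min, 1 was called without its replicate 1 or 2 at 0 min, or its replicate 1 at 35 min.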

How the data were processed

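Each probe set has a deposited intensity on a linear scale, a whole number between 1 and 36178. After trimming 2% at each end, the mean of each array lay between 500.1 and 500.5, as it would after scaling to a common target. No source used here names that step or the software that summarised the probes. The 62 control probe sets were set apart and 22714 were tested, of which 13490 name 1 gene, 503 several and 8721 none in the platform annotation. Symbols and gene order came from the TAIR10.1 reference. The array table names no assembly, so no coordinates are given.

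Intensities were moved to log2(intensity + 26). With limma 3.58.1 in R 4.3.3, 1 model with a mean for each group was fitted to the 24 arrays (16 residual degrees of freedom). Contrasts were two-sided, with Benjamini-Hochberg adjustment over 22714 probe sets and a threshold of 0.05. The pipeline was tested on simulated data. Tables and plots were made in Python 3.11.15 with numpy 2.4.6, pandas 2.3.3 and matplotlib 3.10.9.

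The members, the function lists (135 loci, 38 measured) and the rules were chosen with earlier results of these data known. Named members are the 10 highest and 10 lowest called responses in Col-0 whose arrays do not overlap between times, the 5 highest and 5 lowest called in each mutant, the 10 highest, lowest and most median differences of nlp6nlp7, members called in a mutant, those at the ends, and measured list members. Others named (AT1G23530, AT1G23560, AT1G26550, AT1G25320, AT1G21580, AT1G20760, AT1G20770 and the lowest brighter members) were chosen after their values were seen. The main fit did not pair arrays by replicate number. Correlations of the deviations of same-numbered arrays at 35 and 0 min were 0.469, 0.0674 and 0.338 in nlp7. Arrays with other numbers gave -0.303, -0.0115 and -0.107 there. In the other genotypes the same-numbered arrays gave -0.00837 to 0.204. Whether same-numbered arrays belong together was not tested, and counts with replicate number as a block are given at the end. Alternatives covered normalization, centring, the added constant, a filter on dim probe sets, array weights, a replicate block, only the arrays compared, the class window and each array left out. Leaving out nlp7 replicate 1 at both times was added after seeing the data.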

Additional observations from a re-analysis of the deposited data

Results flagged for a closer look

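The nitrate response of CSLA03, a gene of the glucomannan synthase family, was smaller in nlp6nlp7 than in Col-0 by the test of the difference itself (-0.99 ± 0.22, limma adjusted p = 0.045). It was 0.61 ± 0.15 in nlp6nlp7 and 1.60 ± 0.15 in Col-0. The 3 arrays at 35 min lay above the 3 at 0 min in both genotypes. Over the 33 other settings the difference ran from -1.11 to -0.86, and it was past the threshold in 14 of them. As stated above, this contrast may not be independent of how the stretch was chosen.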

How the results depend on the processing

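The number of arrays, and the nearness of dim probe sets to background, limit what the stretch can show. Of 54 calls named for single members, 36 were kept in every setting and 18 were lost in at least 1. The members' median difference between nlp6nlp7 and Col-0 at 35 and 0 min was 0.67 and 0.657 after quantile normalization, 0.639 and 0.624 with each array centred on its median, 0.813 and 0.805 with 3 added, 0.518 and 0.547 with 103 added, and 0.818 and 0.792 without the dimmest 25%. Omitting 1 array at a time gave 0.684 to 0.727 at 35 min and 0.68 to 0.714 at 0 min. Among members named for a difference, 8, of a size of at most 0.17, took the other sign in at least 1 setting.

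Even members numbered 71 with a window of 0.2 and 205 with 0.5. Members above numbered 51 and 3 with those windows and 13 without the dimmest 25%. Members below numbered 38 with a window of 0.5, 44 with 3 added and 20 without the dimmest 25%. Leaving out arrays gave 115 to 128 even, 27 to 33 above, 62 to 71 below and 87 to 103 mixed.

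Fitting only the arrays compared called 1 member higher and 2 lower after nitrate in nlp7, and 8 higher and 13 lower in nlp6. Centring left 9 lower in nlp6nlp7. Omitting 1 array, the higher and lower counts ran from 5 to 10 and 8 to 15 in nlp6nlp7, 4 to 8 and 7 to 12 in nlp7, 9 to 15 and 12 to 25 in nlp6, and 9 to 15 and 15 to 26 in Col-0. Without both nlp7 replicate 1 arrays, chosen after seeing the data, they were 11 and 15, 4 and 8, 15 and 27, and 15 and 29. The count of response differences between nlp6nlp7 and Col-0 was 0 with centring and with 3 added, 2 with 103 added, without the dimmest 25% and with only the arrays compared, 5 with array weights, and 0 to 2 with 1 array left out (2 without Col-0 or nlp6 replicate 3 at 35 min). For nlp7 it was 1 with array weights and 0 to 1 with 1 array left out (1 without nlp7 replicate 2 at 0 min). For nlp7 against Col-0 at 35 min the count was 5 with 103 added, 10 with array weights, 0 with only the arrays compared and 0 to 6 with arrays left out, and at 0 min it was 0 to 4. For nlp6 it was 0 to 1 at 35 min. The cause of these changes was not tested. Shares of all probe sets are not given for these settings or for the replicate block below.

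With replicate number as a block, the counts were 9 higher and 14 lower in nlp6nlp7, 5 and 12 in nlp7, 15 and 21 in nlp6, and 15 and 21 in Col-0, and the response difference of CSLA03 was no longer past the threshold (adjusted p = 0.056), which left 0 such members.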
